A study of Danio rerio with 9 samples.

Results

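The 8 zebrafish apolipoprotein genes described here were *apoa1a*, *apoa1b*, *apoa2*, *apoa4a*, *apoea*, *apoeb*, *apobb.1* and *apoc1*, taken by name from a count table of 31956 named lines. Each name occurred on 1 line, and all 8 genes passed the filter on low counts. The set was chosen by the counts of *apoa4a* and *apoea* in tg(*hsp70l:tbx16*) tailbuds, which were far below those in wild type. For that reason the values and counts of calls of these genes in that line are given as a description, from which no test is read.

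Apolipoproteins are the proteins that wrap fat and cholesterol into particles that can travel through body fluids. In the zebrafish embryo the yolk syncytial layer, a sheet of shared cytoplasm with many nuclei between the yolk and the embryo, packs yolk lipid into such particles and secretes them to the growing tissues. ApoB is the large structural protein on which a particle is built, ApoA-I and ApoA-II are the main proteins of high-density lipoprotein, ApoA-IV is linked to the secretion of fat-rich particles, ApoE is a ligand of the low-density lipoprotein receptor family, and ApoC-I is a small protein that exchanges between particles. Several of these genes are present as pairs in zebrafish.

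RNA was sequenced from 9 samples of 10 pooled tailbuds, 3 each of wild-type embryos, the tg(*hsp70l:msgn1*) line and the tg(*hsp70l:tbx16*) line. The lines carry *tbx16* or *msgn1*, transcription factors of the presomitic mesoderm, under the *hsp70l* heat-shock promoter, which is not restricted to a tissue. All 3 groups, wild type included, were heat-shocked for 30 min at the 2 to 3 somite stage, and tissue behind the last formed somite was collected 3 h later. The tg(*hsp70l:msgn1*) embryos came from outcrosses of heterozygous fish, and embryos of the same crosses without the transgene served as wild type, whereas the tg(*hsp70l:tbx16*) embryos came from outcrosses of homozygous fish. Between tg(*hsp70l:tbx16*) and wild type, the effects of genotype and of parentage therefore cannot be told apart.

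Counts summed to between 30724561 and 49611289 per sample, and levels are given as CPM, counts divided by the TMM-scaled library total, which are compared here between samples of 1 gene and not between genes. The induced genes were higher in their own lines, with *tbx16* at 564 to 976 CPM against 332 to 372 in wild type and *msgn1* at 1428 to 1958 CPM against 701 to 889. The hepatocyte gene *fabp10a* and the macrophage gene *mfap4* had 0 counts in all 9 samples. Other markers of these tissues were present: 7 of 9 endoderm and liver genes and 5 of 9 macrophage genes passed the filter. Replicate 1 of tg(*hsp70l:tbx16*) stood apart from the other samples of its line in several of the results that follow, and values without it are given where they bear on a result. In tissue pools, fewer cells of a type and less RNA per cell cannot be told apart. Replicates were separate pools, but nothing states that they came from separate clutches, so p-values measure the spread between these pools.

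In tg(*hsp70l:tbx16*) the 8 genes followed 3 courses. *apoa1a*, *apoa1b*, *apoa2* and *apobb.1* were low in every tg(*hsp70l:tbx16*) sample but far less so in replicate 1 than in the others. *apoa4a* and *apoea* were lower still beside wild type. *apoa4a* held 13, 2 and 0 counts in replicates 1 to 3, so it too was highest in replicate 1, on few counts. *apoea* had 0 counts in all 3 samples. *apoeb* was evenly lower in the 3 samples, and *apoc1* overlapped wild type.

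*apobb.1*, a gene for the structural ApoB protein, stood at 412, 393 and 345 CPM in wild type replicates 1 to 3. In tg(*hsp70l:tbx16*) it stood at 135, 9.34 and 18.9 CPM, and in tg(*hsp70l:msgn1*) at 473, 374 and 348 CPM. All 3 tg(*hsp70l:tbx16*) samples lay below all wild-type samples, and replicate 1 lay far above the other two. These levels were 35.2%, 2.44% and 4.94% of the wild-type mean, and the log2 fold change was -2.82 (SE 0.77), or -4.76 without replicate 1.

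The ApoA-I genes had the same course. *apoa1a* stood at 254.3, 271.0 and 291.8 CPM in wild type, at 157, 10.5 and 21.2 CPM in tg(*hsp70l:tbx16*) and at 345, 273 and 274 CPM in tg(*hsp70l:msgn1*). *apoa1b* stood at 336, 399 and 401 CPM in wild type, at 215, 15.4 and 32.8 CPM in tg(*hsp70l:tbx16*) and at 430, 351 and 382 CPM in tg(*hsp70l:msgn1*). For both genes the tg(*hsp70l:tbx16*) samples lay below all others without overlap, at 57.7% and 56.7% of the wild-type mean in replicate 1 and at 3.84% to 8.67% in replicates 2 and 3. The log2 fold change against wild type was -2.11 for each (SE 0.76 for *apoa1a* and 0.74 for *apoa1b*), or -4.10 and -3.97 without replicate 1. As *apoa1a* and *apoa1b* are a pair of related genes, reads could be split between them in counting, which was not tested.

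*apoa2* stood at 112, 100.5 and 108 CPM in wild type, at 41.0, 2.63 and 5.69 CPM in tg(*hsp70l:tbx16*) and at 77.6, 125 and 59.3 CPM in tg(*hsp70l:msgn1*). Its tg(*hsp70l:tbx16*) samples were again all below wild type, and the log2 fold change was -2.70 (SE 0.79), or -4.69 without replicate 1. The 4 genes moved between the tg(*hsp70l:tbx16*) samples almost in step. Replicate 1 exceeded replicate 2 by 13.9-fold for *apoa1b* to 15.6-fold for *apoa2*, and replicate 3 by 6.54-fold to 7.42-fold. This spread was unusual in the line: 99.7% to 99.8% of 13541 genes with a mean of at least 100 counts had a smaller range among the same 3 samples. In wild type the same 4 genes varied by at most 1.19-fold.

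*apoa4a*, which encodes an ApoA-IV protein, stood at 3.67, 4.35 and 4.02 CPM in wild type and at 6.01, 4.14 and 3.77 CPM in tg(*hsp70l:msgn1*). In tg(*hsp70l:tbx16*) replicates 1 to 3 held 13, 2 and 0 counts of it, against 149 to 167 counts in the wild-type samples. Replicate 1, which kept over 35% of the wild-type level of the 4 genes above, thus kept 7.11% of *apoa4a* (95% exact Poisson interval 3.78% to 12.2%, counting error of that library only). The log2 fold change was -5.23 (SE 0.71), or -7.45 without replicate 1.

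*apoea*, one of the ApoE genes, had 172, 77 and 214 counts in wild type (3.92, 2.25 and 5.15 CPM) and 39, 120 and 25 counts in tg(*hsp70l:msgn1*) (1.57, 3.31 and 0.760 CPM). It had 0 counts in all 3 tg(*hsp70l:tbx16*) samples. Taking 3 counts per library as the floor for a count of 0 (a one-sided 95% limit), *apoea* was at least 60.8-fold lower than in wild type and at least 30.3-fold lower than in tg(*hsp70l:msgn1*).

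*apoeb*, the other ApoE gene, behaved differently from its partner. It stood at 2916, 3302 and 2729 CPM in wild type, at 1895, 1985 and 2123 CPM in tg(*hsp70l:tbx16*) and at 4676, 2674 and 3846 CPM in tg(*hsp70l:msgn1*). The 3 tg(*hsp70l:tbx16*) samples were within 1.12-fold of each other, and all lay below wild type, at 63.6%, 66.6% and 71.2% of its mean (log2 fold change -0.58, SE 0.19).

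*apoc1* stood at 648, 688 and 888 CPM in wild type, at 536, 703 and 752 CPM in tg(*hsp70l:tbx16*) and at 642, 945 and 806 CPM in tg(*hsp70l:msgn1*). It was the only member whose tg(*hsp70l:tbx16*) and wild-type samples overlapped, with a log2 fold change of -0.16 (SE 0.19). The excess of replicate 1 was absent from both *apoeb* and *apoc1*, whose replicate 1 was 0.955-fold and 0.763-fold of replicate 2.

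**Figure D1:**
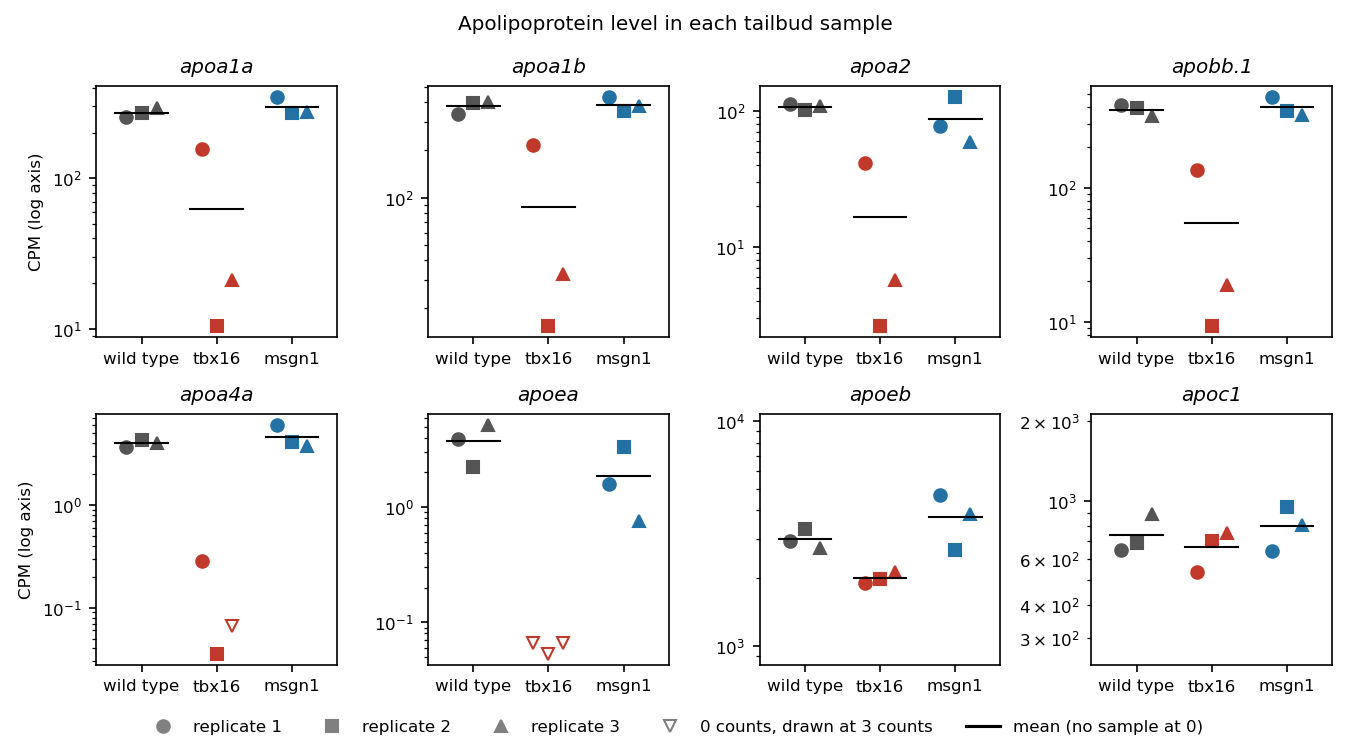
Level of the 8 apolipoprotein genes in each of the 9 tailbud samples, in CPM on a log axis, with the replicate number given by the marker and the group mean by a line; open triangles are samples with 0 counts, drawn at 3 counts. Replicate 1 of tg(*hsp70l:tbx16*) stands above the other 2 samples of the line for *apoa1a*, *apoa1b*, *apoa2* and *apobb.1*. It does so on few counts for *apoa4a*, while *apoea* has 0 counts in all 3.

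Counted together, 7 of the 8 genes had every tg(*hsp70l:tbx16*) sample below every wild-type sample, a pattern found in 25.1% of the 19914 genes tested. Against the adjusted threshold of 0.05 (edgeR's quasi-likelihood test), 5 of the 8 were lower, namely *apoa2*, *apoa4a*, *apoea*, *apoeb* and *apobb.1*, where 15.7% of all genes tested were lower, 15% higher and 30.7% called in either direction. The median log2 fold change of the 8 was -2.41, beside 0.03 over all genes. With scaling by library size alone, 37.0% of the calls over all genes were lower, against 51.1% here. Without replicate 1 of tg(*hsp70l:tbx16*), 6 of the 8 were called lower, *apoa1a* and *apoa1b* now among them and *apoeb* not, with a median of -4.39. Since this contrast chose the genes, nothing is read from these counts.

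Replicate 1 of tg(*hsp70l:tbx16*) also stood apart in other genes of the yolk syncytial layer. The summed level of 15 marker genes was 663 to 723 CPM in wild type, 324, 56.2 and 71.3 CPM in tg(*hsp70l:tbx16*), and 583 to 989 CPM in tg(*hsp70l:msgn1*). That is 46.3%, 8.01% and 10.2% of wild type. The sum of all 8 members was at 61.2%, 55.9% and 60.6%, or 2726 to 2980 CPM, with *apoeb* alone at 1895 to 2123 CPM. The mean log2 ratio of the sum of all 8 to the marker sum was 1.93 higher in tg(*hsp70l:tbx16*) than in wild type. Taken singly, that ratio was higher for *apoeb* (2.11) and *apoc1* (2.52). It was lower for *apoa1a* (-0.37), *apoa1b* (-0.30), *apoa2* (-0.97) and *apobb.1* (-1.05). For *apoa4a* and *apoea*, samples with 0 counts left it without a value. The sum of *apoa1a*, *apoa1b*, *apoa2* and *apobb.1*, grouped by their course in these same samples, was at 48.0%, 3.32% and 6.89%. Of 13 markers tested, 11 fell and 1 rose in tg(*hsp70l:tbx16*) at an adjusted p under 0.05, where 15.7% of all genes were lower and 15% higher. The markers that fell included *afp4*, an apolipoprotein-like antifreeze protein, present on 2 lines (-2.43, SE 0.76), *tfa*, the iron carrier transferrin (-2.43, SE 0.74), *fabp2*, a fatty acid binding protein (-2.50, SE 0.75), and *pla2g12b*, needed for particle export (-2.65, SE 0.76). The iron exporter *slc40a1* rose (0.51, SE 0.15) and *rbp4* did not pass the test. Without replicate 1 of tg(*hsp70l:tbx16*), 11 of 14 markers tested fell and none rose at that threshold, so the call of *slc40a1* was lost, while *afp4* was at -4.26, *tfa* at -4.11, *fabp2* at -4.45 and *pla2g12b* at -4.53. Defining markers were scarce: *mxtx2*, a transcription factor that specifies the layer, had at most 26 counts in a sample, and *ttr* had 0 in all. The part of yolk syncytial layer tissue in the samples in these results was not tested.

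**Figure D2:**
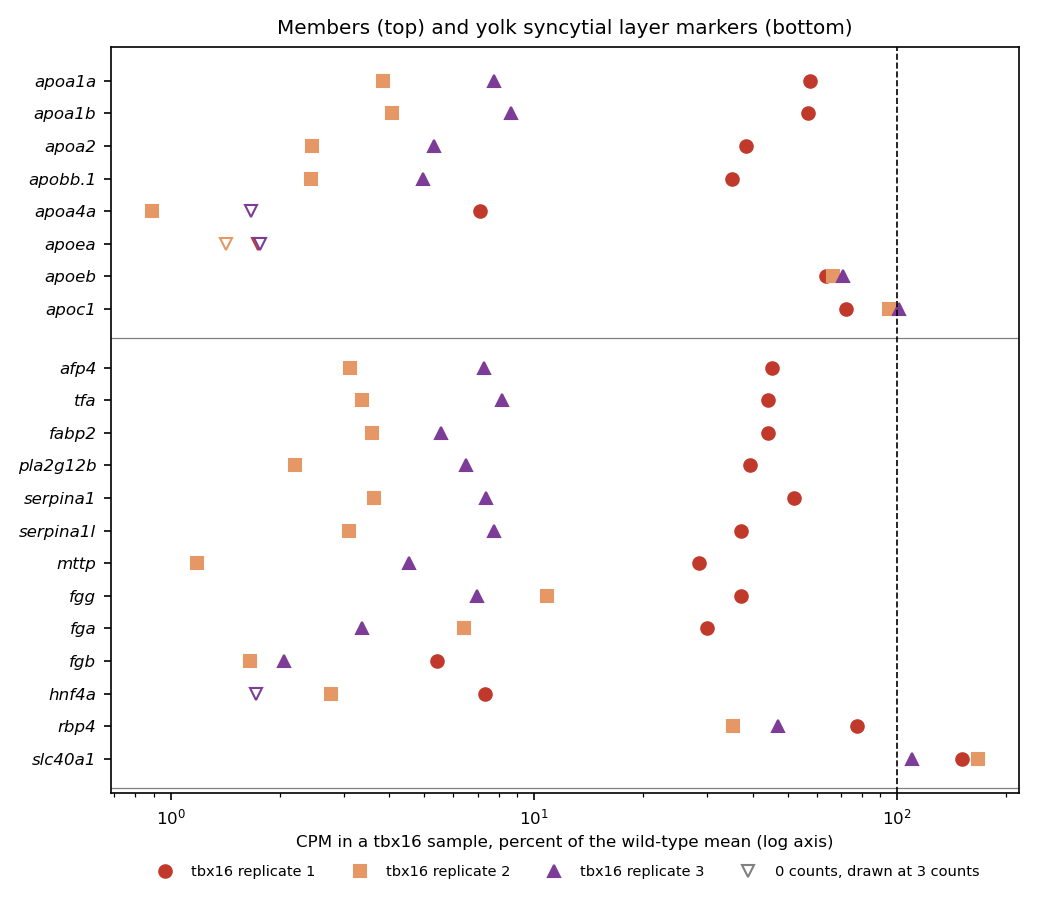
Level of each member (top) and of each yolk syncytial layer marker that passed the filter (bottom) in the 3 tg(*hsp70l:tbx16*) samples, as a percent of the wild-type mean on a log axis; open triangles are samples with 0 counts, drawn at 3 counts, and the dashed line is 100%. Most markers repeat the order of *apoa1a*, with replicate 1 highest at 28.5% to 52.0% for the markers *afp4* through *fga*, whereas *fgb* and *hnf4a* lie at 5.41% and 7.36% in replicate 1, near *apoa4a*.

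A few genes outside the members were as low as *apoa4a* in replicate 1, chosen after their values were seen. *hnf4a*, a nuclear receptor that controls liver lipoprotein genes, stood at 2.90, 3.94 and 4.79 CPM in wild type and 0.285, 0.107 and 0 CPM in tg(*hsp70l:tbx16*). Its relative *hnf4b* was at 10.2% of wild type in replicate 1. *creb3l3a*, a transcription factor of the endoplasmic reticulum that drives apolipoprotein genes, had 0 counts in all 3 tg(*hsp70l:tbx16*) samples, at least 11.2-fold lower than wild type on the 3-count limit. It was scarce, with 36, 26 and 21 counts in wild type. In tg(*hsp70l:msgn1*) it had 11, 11 and 0 counts. These samples also lay below all wild-type samples, as did 9.78% of all genes tested. For that difference edgeR made no call (-1.50, SE 1.01, adjusted p = 0.546). The bound of tg(*hsp70l:tbx16*) against tg(*hsp70l:msgn1*) was 4.02-fold. Its paralog *creb3l3b* had the replicate 1 course, at 33.7%, 1.92% and 5.38%.

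Unlike the contrast with tg(*hsp70l:tbx16*), that of tg(*hsp70l:msgn1*) with wild type did not choose the genes, although it shares the wild-type samples. None of the 8 was called at an adjusted p under 0.05 by edgeR, and none had an unadjusted p under 0.05. DESeq2 called none of 5, and gave no p-value for *apoa1a*, *apoa1b* and *apobb.1*. Of all genes 0.854% were called, and 14.1% had an unadjusted p under 0.05. For all 8 genes the samples of the 2 groups overlapped, where 9.78% of genes lay below without overlap and 8.84% above. The nearest to a change was *apoea*, at -0.998 (SE 0.53, adjusted p = 0.440), with replicates 1 and 3 of tg(*hsp70l:msgn1*) below all wild-type samples and replicate 2 between them. Without replicate 2 of tg(*hsp70l:msgn1*) it was at -1.71 (adjusted p = 0.104), and over all alternatives its adjusted p ran from 0.104 to 0.721. *apoeb* was at 0.32 (SE 0.19, adjusted p = 0.470) and the others lay between -0.29 and 0.21.

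The fit of all 9 samples took its spread in part from the uneven tg(*hsp70l:tbx16*) samples, so its intervals for *apoa1a*, *apoa1b*, *apoa2* and *apobb.1* were wide. For *apoa1a* the 95% interval of the log2 difference was -1.50 to 1.75 in that fit and -0.17 to 0.43 when only wild type and tg(*hsp70l:msgn1*) were fitted. For *apobb.1* the narrower interval was -0.28 to 0.40 and for *apoa4a* -0.34 to 0.76. For *apoea* the interval was no narrower, at -2.21 to 0.22 against -2.18 to 0.19 in the fit of all 9 samples. The signs of the small differences of *apoa1a*, *apoa1b*, *apobb.1* and *apoc1* turned negative when scaling was by library size alone, which moved the median of all genes to -0.20.

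**Figure D3:**
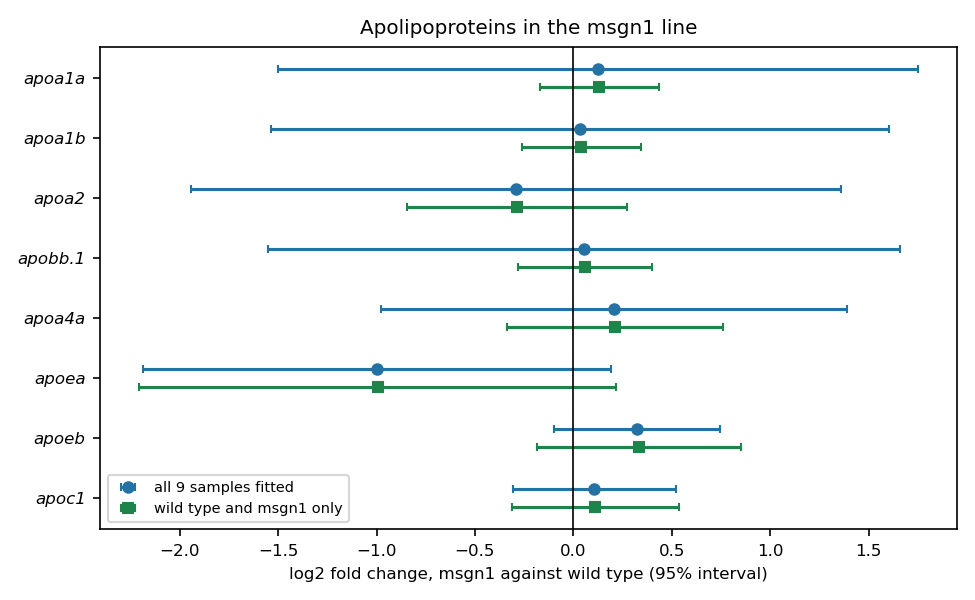
Log2 fold change of tg(*hsp70l:msgn1*) against wild type for each member with its 95% interval, from the fit of all 9 samples (circles) and from wild type and tg(*hsp70l:msgn1*) alone (squares). All intervals cross 0, and the square intervals of *apoa1a*, *apoa1b*, *apoa2*, *apobb.1* and *apoa4a* are the narrower.

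Set against tg(*hsp70l:msgn1*), the same 7 members were lower in tg(*hsp70l:tbx16*) without overlap, where 23.7% of all genes were, and 7 were called lower by edgeR, where 19.8% of genes were. This comparison shares the tg(*hsp70l:tbx16*) samples that chose the genes, so its counts are a description. The log2 fold changes were -2.24 for *apoa1a*, -2.15 for *apoa1b*, -2.41 for *apoa2*, -2.87 for *apobb.1*, -5.43 for *apoa4a* and -0.90 for *apoeb*. Without replicate 1 of tg(*hsp70l:tbx16*), the values of *apoa1a*, *apoa1b*, *apoa2*, *apobb.1* and *apoa4a* were -4.22, -4.00, -4.39, -4.81 and -7.65. *apoc1* was at -0.27, and at 0.04 under scaling by library size alone.

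Genes of the wider lipoprotein pathway were counted list by list. Over all genes tested, edgeR called 15.7% lower and 15% higher in tg(*hsp70l:tbx16*), and 0.854% in either direction in tg(*hsp70l:msgn1*). Without replicate 1 of tg(*hsp70l:tbx16*), 4845 of 20251 genes were called in that line, 52.5% of them lower. Among 11 other apolipoproteins tested, 4 fell in tg(*hsp70l:tbx16*): *apoba*, another ApoB gene (-2.79, SE 0.77), *apoa4b.2* (-2.94, SE 0.67), *apoc2*, the activator of lipoprotein lipase (-2.06, SE 0.32), and *apom*, a carrier of sphingosine phosphate (-2.95, SE 0.67). The name *apoa4b.2* was present on 2 lines, of which the line highest in counts is given. Without replicate 1 of tg(*hsp70l:tbx16*) 6 of the other apolipoproteins fell, and *apoba* was at -4.82, *apoa4b.2* at -4.35, *apoc2* at -2.54 and *apom* at -4.54. None was called in tg(*hsp70l:msgn1*) by edgeR, and 0 had an unadjusted p under 0.05. *apoc2* stood at 14.9 to 16.4 CPM in wild type and 5.99, 2.23 and 3.15 CPM in tg(*hsp70l:tbx16*), so its excess in replicate 1 was 2.68-fold over replicate 2.

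Of 20 genes of particle assembly tested, 8 fell and 1 rose in tg(*hsp70l:tbx16*). The lists overlap: *mttp* and *pla2g12b* of this list, and *hnf4a* of the regulators, were also counted among the yolk syncytial layer markers. Assembly genes that fell included *pla2g12b*, *mogat2*, an enzyme of fat synthesis (-2.92, SE 0.69), and *sar1b*, a GTPase of the vesicles that carry particles out of the endoplasmic reticulum (-0.52, SE 0.11). *sar1b* was even across the 3 samples, at 114 to 131 CPM against 164 to 184 in wild type. The cargo receptor *surf4* rose (1.21, SE 0.13). Without replicate 1 of tg(*hsp70l:tbx16*) the counts were again 8 and 1, with *mogat2* at -4.31. *mttp*, which loads lipid onto ApoB and was named after its values were seen, stood at 17.9 to 20.7 CPM in wild type and 5.59, 0.232 and 0.888 CPM in tg(*hsp70l:tbx16*).

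Receptors and enzymes that act on circulating particles did not move as a block. Of 23 tested, 9 fell, 2 rose and 12 were not called, with a median of -0.44. The receptor *lrp1ab* fell (-0.71, SE 0.21), as did *lsr* (-0.47, SE 0.13), the cholesterol exporter *abca1a* (-0.87, SE 0.18) and the transfer protein *pltp* (-0.65, SE 0.18). *lpl*, lipoprotein lipase, was the 1 gene of these lists called in tg(*hsp70l:msgn1*), at 28.0, 34.3 and 31.9 CPM in wild type and 18.1, 15.8 and 20.2 CPM in that line (-0.80, SE 0.15, adjusted p = 0.038). That call held in 8 of 16 alternatives and was lost in the other 8: with only the groups compared, with the replicate block, and without any one of the 3 wild-type samples, tg(*hsp70l:tbx16*) replicate 1 or tg(*hsp70l:msgn1*) replicate 1 or 3. Its adjusted p ran from 0.00014 to 0.162. *lpl* also fell in tg(*hsp70l:tbx16*), at 15.2, 13.9 and 18.1 CPM, all below wild type (-0.999, SE 0.15, adjusted p = 0.00083 by edgeR). Its tg(*hsp70l:tbx16*) and tg(*hsp70l:msgn1*) samples overlapped, and edgeR called no difference between the lines (adjusted p = 0.307). In tg(*hsp70l:tbx16*), the calls of *lsr* (-0.42) and *pltp* (-0.47) were lost without replicate 1, when 8 of the 23 fell and 3 rose.

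Of 22 regulators, 11 fell and 1 rose in tg(*hsp70l:tbx16*), the most abundant being *foxa* (-0.80, SE 0.15), *hnf1ba* (-2.10, SE 0.18), *foxa2* (-1.09, SE 0.16) and *hnf1bb* (-2.38, SE 0.39). Replicate 1 of that line was 0.768-fold of replicate 2 for *foxa*, 1.24-fold for *hnf1ba*, 0.779-fold for *foxa2* and 1.44-fold for *hnf1bb*. Of 22 sterol and fatty acid synthesis genes tested, 3 were lower, 2 higher and 17 not called, beside 30.7% called over all genes. *hmgcs1*, an early enzyme of cholesterol synthesis, fell (-0.61, SE 0.12), as did *sqlea* (-0.98, SE 0.28) and *scd* (-1.25, SE 0.26), and *sc5d* rose (0.72, SE 0.19). The median of the list was 0.20. Without replicate 1 of tg(*hsp70l:tbx16*), 10 regulators fell and 0 rose, and 2 synthesis genes fell and 2 rose by edgeR, with the call of *sqlea* lost (-0.86).

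**Figure D4:**
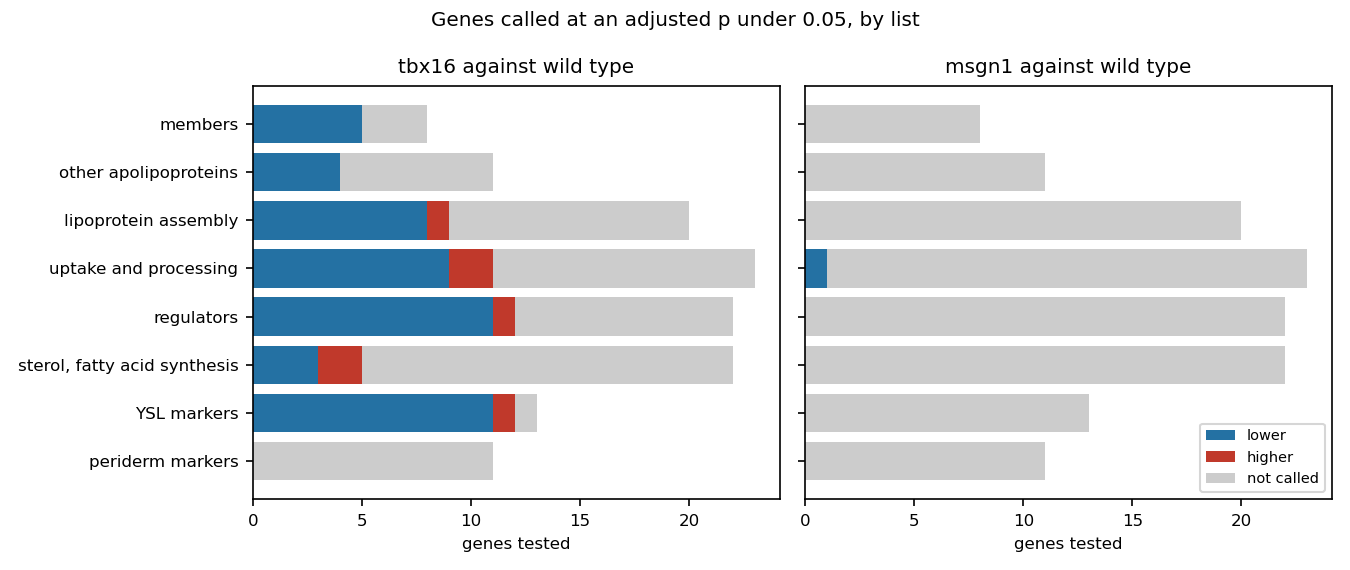
Number of tested genes in the members, the 5 pathway lists, the yolk syncytial layer markers and the periderm markers that were lower, higher or not called at an adjusted p under 0.05 (edgeR), for tg(*hsp70l:tbx16*) on the left and tg(*hsp70l:msgn1*) on the right. Of these 8 lists, the only coloured block on the right is *lpl*, and the periderm list has no called gene in either panel.

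Markers of other tissues, and of the tailbud itself, varied too. Summed periderm keratin and junction genes ranged from 2437 to 11057 CPM over the wild-type samples and from 4650 to 8841 CPM in tg(*hsp70l:tbx16*), with 0 of 11 genes called by edgeR in either line and 0 at an unadjusted p under 0.05. In tg(*hsp70l:tbx16*), 14 of 16 tailbud genes tested fell and *tbx16* itself rose, where 15.7% of all genes were lower and 15% higher. In the same line, 2 of 3 basal epidermis genes fell, 1 of 7 endoderm and liver genes fell, and 2 of 5 macrophage genes fell and 1 rose. In tg(*hsp70l:msgn1*), 2 tailbud genes and the epidermal gene *tp63* fell, *msgn1* itself rose, and 0 of 13 yolk syncytial layer markers were called by edgeR, with 0 at an unadjusted p under 0.05. The part of any of these lists in the apolipoprotein values was not tested.

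Over all 9 samples, the genes whose centred log2 CPM profile lay nearest to the median profile of the members were *slc2a2*, *afp4*, *pla2g12b*, *apoba*, *zgc:174904*, *dao.1*, *rltgr*, *apoa4b.2*, *glula* and *pvalb9*. Their root mean square difference from that profile was 0.17 to 0.29 on the log2 scale, among 13534 genes. *slc2a2*, a glucose transporter, was the nearest, at 9.84 to 10.8 CPM in wild type and 3.01, 0.304 and 0.711 CPM in tg(*hsp70l:tbx16*). The members *apoa1a*, *apoa1b*, *apoa2* and *apobb.1* were themselves at 0.23 to 0.29, and *apoa4a*, *apoea*, *apoeb* and *apoc1* at 1.01 to 1.77, so the profile was that of the first 4.

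Gene order, chromosomes and overlaps of annotated spans were taken from the RefSeq annotation of assembly GRCz12tu, which was used for these alone. *apoa4a* and *apoea* lie side by side on chromosome 19. Their neighbours did not share the near absence: *tomm40l*, next to *apoa4a*, stood at 79.0 to 93.0 CPM in wild type and 45.3 to 53.5 CPM in tg(*hsp70l:tbx16*) (-0.83, SE 0.11, adjusted p = 0.00038), and *psmd4a*, the gene after next beyond *apoea*, at 52.0 to 63.1 CPM and 47.4 to 56.6 CPM (-0.16, SE 0.20, adjusted p = 0.591). The annotated span of *si:dkey-3n22.9* overlaps both members. It was higher in tg(*hsp70l:tbx16*), at 7.15 to 9.37 CPM against 3.83 to 5.46 (0.81, SE 0.24), a call lost without replicate 1 of tg(*hsp70l:tbx16*) (0.78), and whether counting used strand is not given in the sources used here.

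On chromosome 16 the order of the named apolipoprotein genes in the count table is *apoa4b.1*, *apoa4b.2*, *apoeb*, *apoc1*, *apoc4*, *apoa2* and *apoc2*. Between *apoa4b.1* and *apoa4b.2* lie *LOC100005908*, *apoa4b.3* and *si:dkey-7f3.14*, of which only *si:dkey-7f3.14* is in the count table. *LOC141378055* lies between *apoc1* and *apoc4*. *apoeb* and *apoc1*, which lacked the excess of replicate 1, lie between *apoa4b.2* (-2.94) and *apoa2* (-2.70), which have the replicate 1 course. *apoa4b.1* at the end of the cluster stood at 22.6 to 26.2 CPM in wild type and 19.2, 1.11 and 1.69 CPM in tg(*hsp70l:tbx16*). *apoc4*, the next of these apolipoprotein genes after *apoc1*, had at most 1 count in a sample. The members *apoa1a*, *apoa1b* and *apobb.1* lie away from the other members on chromosomes 5, 15 and 20. *apobb.1* and the *apoa4b* genes have related genes among which reads could be split, so their counts are uncertain to that extent. *apoa1a* and *apoc1* each overlap a gene annotated in GRCz12tu that the count table does not name. Any effect of these overlaps on their counts was not tested.

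**Figure D5:**
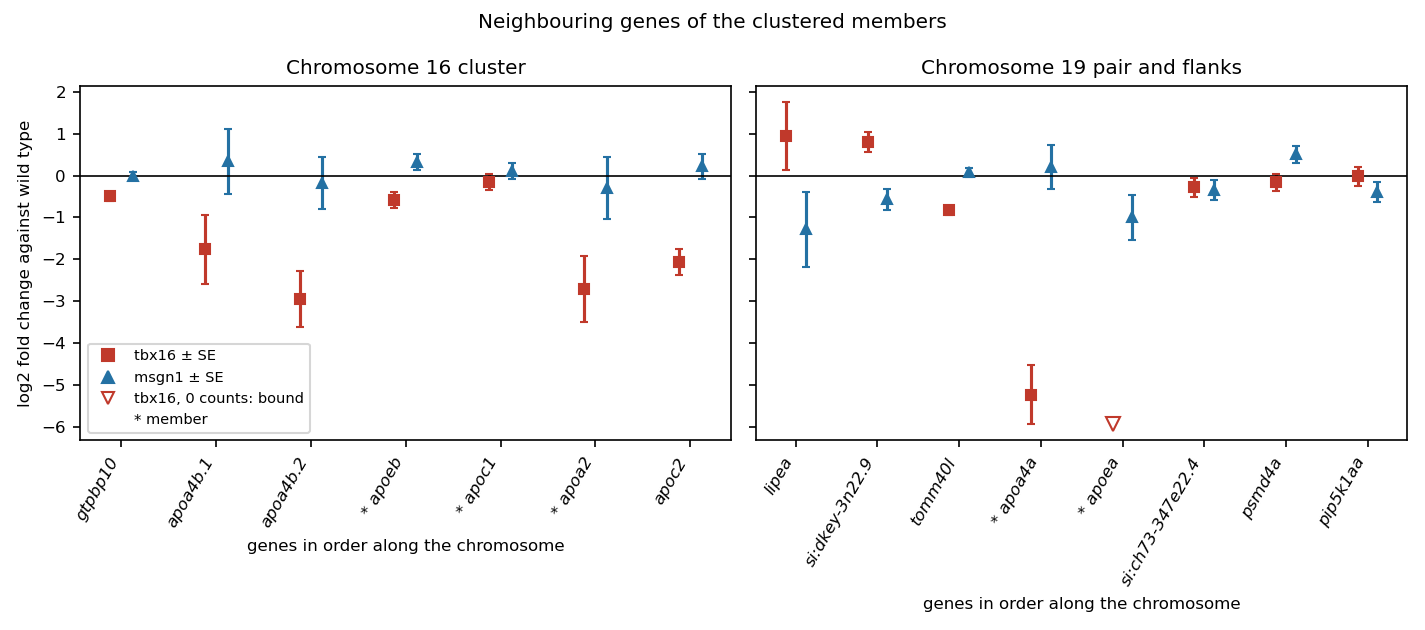
Log2 fold change against wild type (bars, SE) of the genes in order along the chromosome 16 cluster and around the chromosome 19 pair, for tg(*hsp70l:tbx16*) (squares) and tg(*hsp70l:msgn1*) (triangles); members carry an asterisk, genes that did not pass the filter are left out, and the open triangle is the bound for *apoea* at -5.93. *apoeb* at -0.58 and *apoc1* at -0.16 lie between genes at -2.94 and -2.70, and *apoa4a* and *apoea* stand below all their neighbours.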

How the data were processed

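Per the labels and the study's methods, the authors trimmed polyA-selected reads with Trim Galore 0.5.0, aligned them to GRCz11 with HISAT2 2.1.0, used StringTie for quantification, and deposited a table of whole-number gene counts without scaling for depth. The annotation release, strand setting and step to whole counts are not given in the sources used here, and the labels and methods give different heat-shock temperatures. Of 32020 lines, 64 had a blank name (0.0903% of counts) and were left out; 1289 had a repeated name, of which the line highest in counts stood for a listed gene.

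All 9 samples were fitted together in edgeR 4.0.16 (limma 3.58.1, R 4.3.3) with TMM scaling, filterByExpr, which left 19914 genes, and its quasi-likelihood F-test, with p-values adjusted by the Benjamini-Hochberg method over all genes. CPM used the TMM-scaled library. Fold changes are log2. Each SE was derived from the test, as the absolute log2 fold change divided by the square root of its F statistic. Poisson intervals and the floor of 3 counts cover counting error only. Likeness was the root mean square difference of centred log2 CPM over genes with a mean of at least 100 counts. Replicates differed by 18.6 to 90.0 times counting error in a chi-square per gene, so none was a repeat library. Of the steps, only the edgeR fit was tried on simulated counts, for tg(*hsp70l:msgn1*) against wild type, with spreads estimated from these samples.

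The members and lists were chosen with earlier results of these data known. Named were all members, up to 4 called genes of highest mean per list and contrast, scarce defining markers, the 10 nearest genes, the induced genes and neighbours; others are marked as chosen after their values were seen. Alternatives were RLE factors, library size alone, DESeq2 1.42.0, no filter, at least 10 counts in every sample, only the groups compared, a replicate block, leaving out each sample, and 2 other ways of ranking likeness.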

Additional observations from a re-analysis of the deposited data

How the results depend on the processing

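Over 16 alternatives, no member was called in tg(*hsp70l:msgn1*) against wild type except *apoeb*, called without tg(*hsp70l:msgn1*) replicate 2 (0.51, adjusted p = 0.0476 by edgeR; range over alternatives 0.0476 to 0.862). Leaving out single samples, counts of members called ranged from 0 to 1 in that comparison, from 2 to 6 in tg(*hsp70l:tbx16*) against wild type and from 4 to 7 between the lines. The 2 came without wild type replicate 1 and without tg(*hsp70l:tbx16*) replicate 3, and the 3 without wild type replicate 2. In tg(*hsp70l:tbx16*) against wild type, *apoeb* was no longer called when any single wild-type or tg(*hsp70l:tbx16*) sample was left out. Its call was also lost without tg(*hsp70l:msgn1*) replicate 3 and with the replicate block. Pathway genes called ranged from 0 to 3 in tg(*hsp70l:msgn1*) and from 30 to 43 in tg(*hsp70l:tbx16*), and all genes called from 37 to 1198 (tg(*hsp70l:msgn1*), 1198 without its replicate 2), 3968 to 6644 (tg(*hsp70l:tbx16*)) and 5640 to 8010 (between the lines).

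Without tg(*hsp70l:tbx16*) replicate 1 the log2 fold changes against wild type were -4.10 for *apoa1a*, -3.97 for *apoa1b*, -4.69 for *apoa2* and -4.76 for *apobb.1*, which replicate 1 had raised. Leaving out single samples, tg(*hsp70l:msgn1*) differences ranged from -0.048 to 0.10 for *apoa1b*, -0.021 to 0.33 for *apoa4a*, -0.089 to 0.14 for *apobb.1*, -0.035 to 0.26 for *apoc1*, -0.64 to -0.076 for *apoa2* and -1.71 to -0.62 for *apoea*. With library size alone they were -0.071 for *apoa1a*, -0.16 for *apoa1b*, -0.14 for *apobb.1* and -0.064 for *apoc1*; 4 members were called between the lines and 2 pathway genes in tg(*hsp70l:msgn1*). That scaling moved the median of all genes to 0.18 in tg(*hsp70l:tbx16*), -0.20 in tg(*hsp70l:msgn1*) and 0.38 between the lines, and the share of calls that were lower from 51.1% to 37.0%, from 58.2% to 77.0% and from 51.6% to 23.4%. DESeq2 called 702 genes and 3 pathway genes in tg(*hsp70l:msgn1*) and 4 members between the lines, where it gave no p-value for *apoa1a*, *apoa1b* and *apobb.1* at log2 fold changes of -2.25, -2.16 and -2.88. Fitting only the groups compared gave 0 pathway genes in tg(*hsp70l:msgn1*) and 4 members between the lines. Other causes were not tested.

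Same-numbered wild-type and tg(*hsp70l:msgn1*) samples had correlated deviations of 0.20, 0.0057 and 0.64, so the numbers were not taken as pairs. Wild type replicate 2 correlated with tg(*hsp70l:msgn1*) replicate 1 at 0.57, and wild type replicate 1 with tg(*hsp70l:msgn1*) replicate 2 at 0.21. The remaining differently numbered pairs ran from -0.60 to -0.13. Pairing under different numbers was not tested, and neither the main fit nor the replicate block allows for it. With the replicate block, 85 genes, 0 members and 0 pathway genes were called in tg(*hsp70l:msgn1*), and *apoa1b* was at -0.047. Of the 10 nearest genes, 4 were shared when a mean of at least 1000 counts was required and 3 when profiles were centred per genotype. *apoa4a* and *apoea* did not pass the filter of at least 10 counts in every sample and have no value there. Counting error limits *apoa4a* and *apoea*, and 3 samples per group limit all.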
